A study of Homo sapiens with 18 samples.

Results

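The genes described here encode the proteins of the cytoplasmic ribosome. They are the genes whose symbol is RPL or RPS followed by a number, with at most one of the endings A, L, X or Y, together with RPLP0 to RPLP2, RPSA and FAU. Pseudogenes, the RPS6K kinases and chromosome Y were left out. The rule found 82 genes among the 25343 human genes of the tables, 49 of the large and 33 of the small subunit, on 21 chromosomes, with 12 on chromosome 19 and 4 on chromosome X. A filter on low counts kept 79 of them for testing, and RPL3L, RPL10L and RPL39L did not pass it.

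RNA came from tumours of HCT116, an established human colon cancer line, grown in mice after knockout of PTDSS2, so vehicle and treated tumours all carried that knockout. PTDSS2 encodes 1 of the enzymes that make phosphatidylserine, and the series concerns an inhibitor of the other, PTDSS1. The 3 groups of 6 libraries received vehicle, or 10 mg/kg or 30 mg/kg of the compound coded DS55980254 as an oral dose in 0.5% methylcellulose, 24 hours before the tumours were collected. Nothing in the labels ties a tumour to a mouse of its own, and p-values therefore measure the spread between these samples, which may be technical. Whether the knockout line was 1 clone is not given in the sources used here.

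A cytoplasmic ribosome holds 1 copy of nearly every one of these proteins, apart from the acidic proteins of the stalk, and dividing cells spend much of their transcription on them. Most of the messages begin with a C and a run of pyrimidines, the 5′ terminal oligopyrimidine (TOP) tract. Through it the mTOR pathway and LARP1 set how well these messages are translated, a step that counts of RNA do not show. MYC raises transcription of many of the genes, and loss of single members activates p53 through RPL5 and RPL11.

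The starts of a few of the genes described below are shown with 10 bases before and 20 bases from the start that RefSeq gives (GRCh38.p14), read along the transcribed strand. Capitals mark the unbroken run of C and T that begins at the start. The first 7 have a TOP start, here a C at the start followed by at least 4 bases that are C or T, and EEF1A1, a translation elongation factor, is shown beside the ribosomal proteins because it has one too. The last 4 do not meet that definition.
RPLP0 at chr12:120201092-120201121, minus strand: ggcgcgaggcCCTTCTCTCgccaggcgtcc
RPLP2 at chr11:809957-809986, plus strand: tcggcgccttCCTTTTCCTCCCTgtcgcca
RPL35A at chr3:197950180-197950209, plus strand: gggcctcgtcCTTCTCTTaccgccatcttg
RPL13A at chr19:49487598-49487627, plus strand: aaacctcctcCTTTTCCaagcggctgccga
RPL21 at chr13:27251548-27251577, plus strand: ccgcctctttCCTTTCggccggaaccgcca
RPS27 at chr1:153990752-153990781, plus strand: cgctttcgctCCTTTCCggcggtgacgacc
EEF1A1 at chr6:73521013-73521042, minus strand: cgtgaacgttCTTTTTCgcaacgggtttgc
RPL3 at chr22:39319604-39319633, minus strand: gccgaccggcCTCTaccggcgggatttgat
RPS28 at chr19:8321486-8321515, plus strand: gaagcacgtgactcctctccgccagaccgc
RPS29 at chr14:49598691-49598720, minus strand: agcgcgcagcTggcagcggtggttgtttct
RPS27L at chr15:63157458-63157487, minus strand: gatgccgagcgcagatcgcttgcagcttgc

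The RefSeq table of starts held 65 of the 82 genes. A TOP start was found at 1 or more listed starts of 47 of the 65 (72.3%), against 1404 of all 27305 genes in the table (5.14%) and 6 of 69 genes for mitochondrial ribosomal proteins (8.70%). Counted by start, 58.8% of the 80 listed starts of these genes had one, against 4.07% of all starts. The search used the transcribed strand and the base at the annotated start, so a start that lies a base away from the one in use would be missed. Of the genes tested, the 47 with a TOP start and the 17 without one had median log2 fold changes of -0.15 and -0.18 at 10 mg/kg against vehicle, and of -0.04 and -0.06 at 30 mg/kg. Without 10 mg/kg replicate 2, a shallow library described next, both medians at 10 mg/kg were -0.10.

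Counts assigned to human genes totalled 3435451 to 8538824 in 17 libraries. The total was 434008 in 10 mg/kg replicate 2, and this library also correlated least with the rest (mean correlation 0.726 of log2 values, against 0.942 to 0.954). The ribosomal protein genes held 127845 to 342225 of the counts in the 17 libraries and 16831 in that one, where 30 of the 82 genes had under 50 counts, against 3 or 4 genes elsewhere. Markers of colon carcinoma epithelium summed to 5037 to 7245 CPM (counts relative to the scaled library total) in the 17 libraries, with 5 of 8 past the filter and VIL1, CDX1 and CEACAM5 below it. They summed to 3963 CPM in 10 mg/kg replicate 2. Fibroblast markers, 2 of 6 past the filter, summed to 317 CPM there against 61.8 to 109, endothelial markers to 85.5 against 3.45 to 18.2, and leukocyte markers to 32.1 against 8.58 to 16.5. Their part in the results was not tested, so the main medians and fold changes that involve 10 mg/kg are given with and without that library. PTDSS2 was counted at 8.75 ± 2.30, 9.42 ± 2.32 and 7.91 ± 3.36 CPM (SD, n = 6 each) in the vehicle, low-dose and high-dose groups, and gene counts do not show whether those transcripts are intact.

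With vehicle, ribosomal protein genes took 4.49 ± 0.156% of the counts (SD, n = 6). Comparing genes needs a value per length, given here as CPM per kilobase of effective length, and the median of the 79 genes was 665, against 10.7 for all 14074 genes tested. All but RPL21 lay above that second value. Without counts listed for pseudogenes, the stalk, which recruits the elongation factors, supplied 3 of the 4 highest. RPLP2 stood at 2481 ± 232 and RPLP0, which anchors the stalk, at 2455 ± 212 CPM per kilobase (SD, n = 6). RPS2, at the entry of the mRNA channel, had 2055 ± 278 and RPLP1 2025 ± 195 CPM per kilobase (SD, n = 6). RPLP2 and RPLP0 differed by less than the larger of their SDs, as did RPS2 and RPLP1, while the steps from RPLP0 to RPS2 and from RPLP1 to the next gene, RPL26, were wider than that. Of all 81 neighbouring pairs in the order, 75 lay within the larger SD, and the other pairs beyond it were RPL12 and RPL27, RPL14 and RPL35A, RPL32 and RPL27A, and RPL27A and RPS27L.

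Next in the order came RPL26 at 1720 ± 154, RPS18 at 1688 ± 151, RPL3 at 1680 ± 191 and RPS6 at 1673 ± 121 CPM per kilobase (SD, n = 6). RPL3 lies close to the catalytic centre of the large subunit, and RPS6 is the substrate for which the S6 kinases are named. At the other end stood RPL32 at 151 ± 18.2, RPL27A at 80.9 ± 13.3 and RPS27L at 30.7 ± 5.00 CPM per kilobase (SD, n = 6), and RPL21, which was listed at 0 in all but 1 of the 6 libraries. The length in the tables bears on this order. The ribosomal protein genes had a median effective length of 642 bases, against 2836 for all genes tested, but the 8 genes over 1500 bases, a limit chosen after the values were seen, all ranked between 64 and 77. RPL27A, for instance, was given 4808 bases. Without these 8, RPL21 and RPS27L, the other 69 spanned a 14.7-fold range, from 169 for RPL37 to 2481 for RPLP2. RPL37 itself was given 1499 bases, just under the limit, so length bears on the low end of this range too. The medians were 588 for the 46 genes of the large subunit tested and 699 CPM per kilobase for the 33 of the small subunit, with no test of that difference. The division of reads with pseudogenes bears on the order too. RPL13A ranked 50 at 527 ± 16.9 CPM per kilobase (SD, n = 6), while it held 21.3 to 24.2% of its pair with the pseudogene RPL13AP5 in vehicle libraries. Ranks with pseudogene counts added were not computed.

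**Figure D1:**
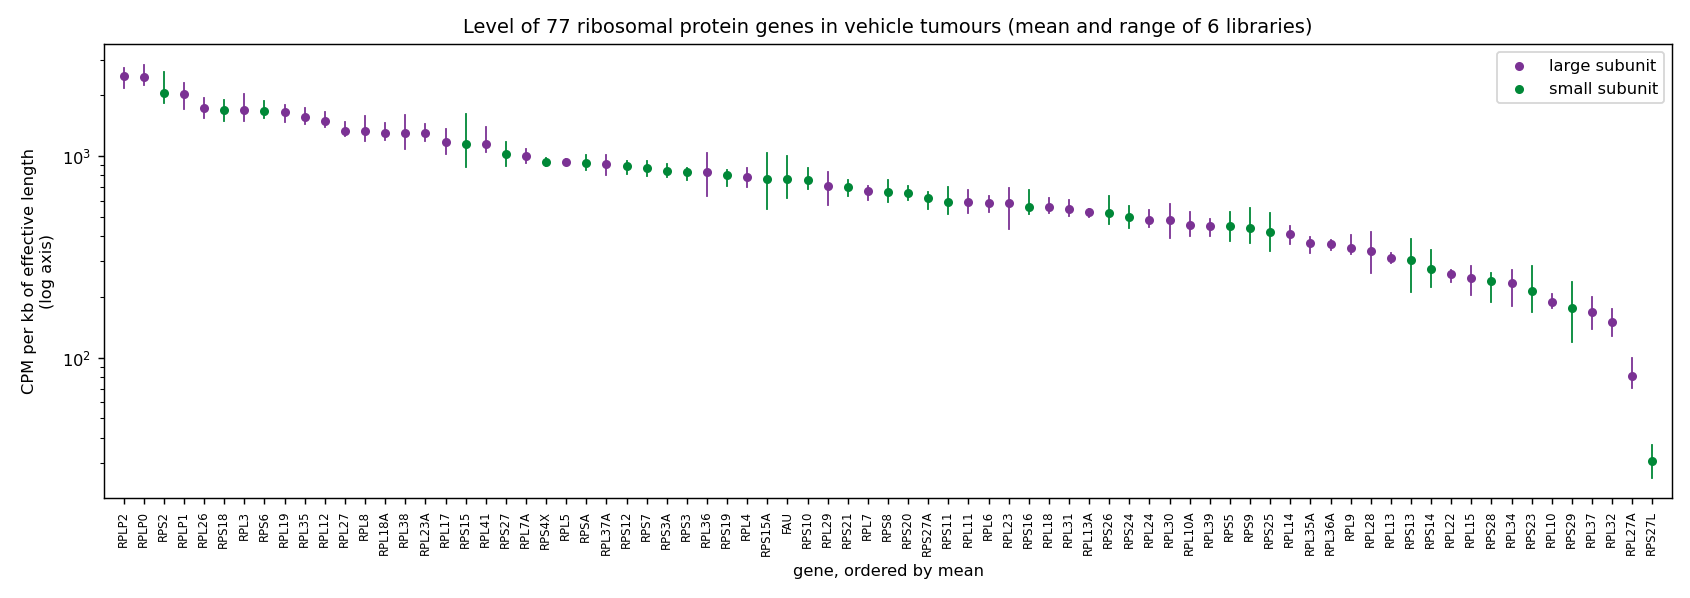
Level of 77 of the 79 ribosomal protein genes tested, in vehicle tumours, in CPM per kilobase of effective length on a log axis, ordered by mean. Points are means, lines run from the lowest to the highest of 6 libraries, and colour gives the subunit. RPL21, listed at 0 in most libraries, is among the 2 left out. The order falls from 2481 for RPLP2 to 30.7 for RPS27L in small steps, with RPL27A and RPS27L apart at the end.

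Members whose symbol marks them as paralogs stood far below their parents. RPS27L, a p53-induced copy of RPS27, reached 3.04% of the level of RPS27 per length over all 18 libraries. In CPM it ranged with vehicle from 25.8 to 37.4 (median 29.8), at 10 mg/kg from 2.14 to 30.6 (median 24.9) and at 30 mg/kg from 23.9 to 37.2 (median 28.7). The 3 groups overlapped, and the value of 2.14 belongs to 10 mg/kg replicate 2. RPL39L had 9 counts in 8 libraries and RPL3L, known from muscle, 21 counts in 9. RPL10L, known from testis, had 3 counts, all in 10 mg/kg replicate 4. With 0 counts in the vehicle and 30 mg/kg groups, levels of up to 0.113 and 0.102 CPM over the group's total are allowed, for counting error only.

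No ribosomal protein gene passed the threshold in any comparison. At 10 mg/kg against vehicle, 0 of 79 passed at an adjusted p of 0.05, when 0.469% of all 14074 genes did (0.419% higher, 0.0497% lower). At 30 mg/kg against vehicle, 0 of 79 passed, when 0.618% of all genes did (0.568% higher, 0.0497% lower), and between the doses 0 of 79 and 0% of all genes passed. These are edgeR quasi-likelihood tests with Benjamini-Hochberg adjustment over all genes. At an unadjusted p under 0.05 stood 2 of 79 at 10 mg/kg (9.5% of all genes), 1 of 79 at 30 mg/kg (7.92%) and 4 of 79 between the doses (3.52%). By DESeq2, 0 of 79 passed in each comparison too. In no comparison did a ribosomal protein gene have groups without overlap, higher or lower, when 0.689% and 0.469% of all genes did at 10 mg/kg, 1.25% and 0.476% at 30 mg/kg, and 0.0568% and 0.0782% between the doses.

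The genes lay on one side of 0 more often than all genes did at 10 mg/kg. There the log2 fold change was below 0 for 68 of 79, against 51.2% of all genes tested, with a median of -0.17 (0.889-fold), against -0.01 for all genes. At 30 mg/kg against vehicle it was below 0 for 55 of 79, against 50.2%, with a median of -0.05 against -0.00. Between the doses 12 of 79 were below 0, against 49.1%, and the median was 0.12 against 0.00. In that comparison the 77 mitochondrial ribosomal protein genes had a median of 0.14, with 20 below 0. The first and last comparison share the 10 mg/kg libraries. Members moved together within libraries (median correlation between pairs 0.39 over 17 libraries), so the 79 are not separate observations. Single vehicle libraries also had between 19 (replicate 5) and 70 (replicate 1) of the 79 genes below the vehicle mean. At 10 mg/kg it was 64, 74 and 72 genes in replicates 2, 4 and 6, and 43, 39 and 39 in replicates 1, 3 and 5. Without 10 mg/kg replicate 2, the median at 10 mg/kg was -0.10 with 61 of 79 below 0, and that between the doses was 0.04 with 28 of 79 below 0. Large-subunit genes had medians of -0.21 at 10 mg/kg and -0.05 at 30 mg/kg, and small-subunit genes -0.14 and -0.05. Without that library the median at 10 mg/kg was -0.10 for each subunit.

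Leaving out RPL21, single fold changes ran at 10 mg/kg from 0.751-fold for RPS27 to 1.42-fold for RPLP2, and both ends rested on 10 mg/kg replicate 2. Without it the range was 0.831-fold for RPS13 to 1.08-fold for RPL39, with RPS27 at 0.854-fold and RPLP2 at 0.983-fold. At 30 mg/kg they ran from 0.742-fold for RPS28 to 1.13-fold for RPL39. The median standard error of the 79 was 0.17 (log2). The 95% interval lay within 0.5 log2 units of 0 for 33 of 79 genes at 10 mg/kg and for 53 of 79 at 30 mg/kg, and within 1 unit for 76 and 78 of 79. In tumour tissue, fewer cells of a type and less RNA per cell cannot be told apart.

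**Figure D2:**
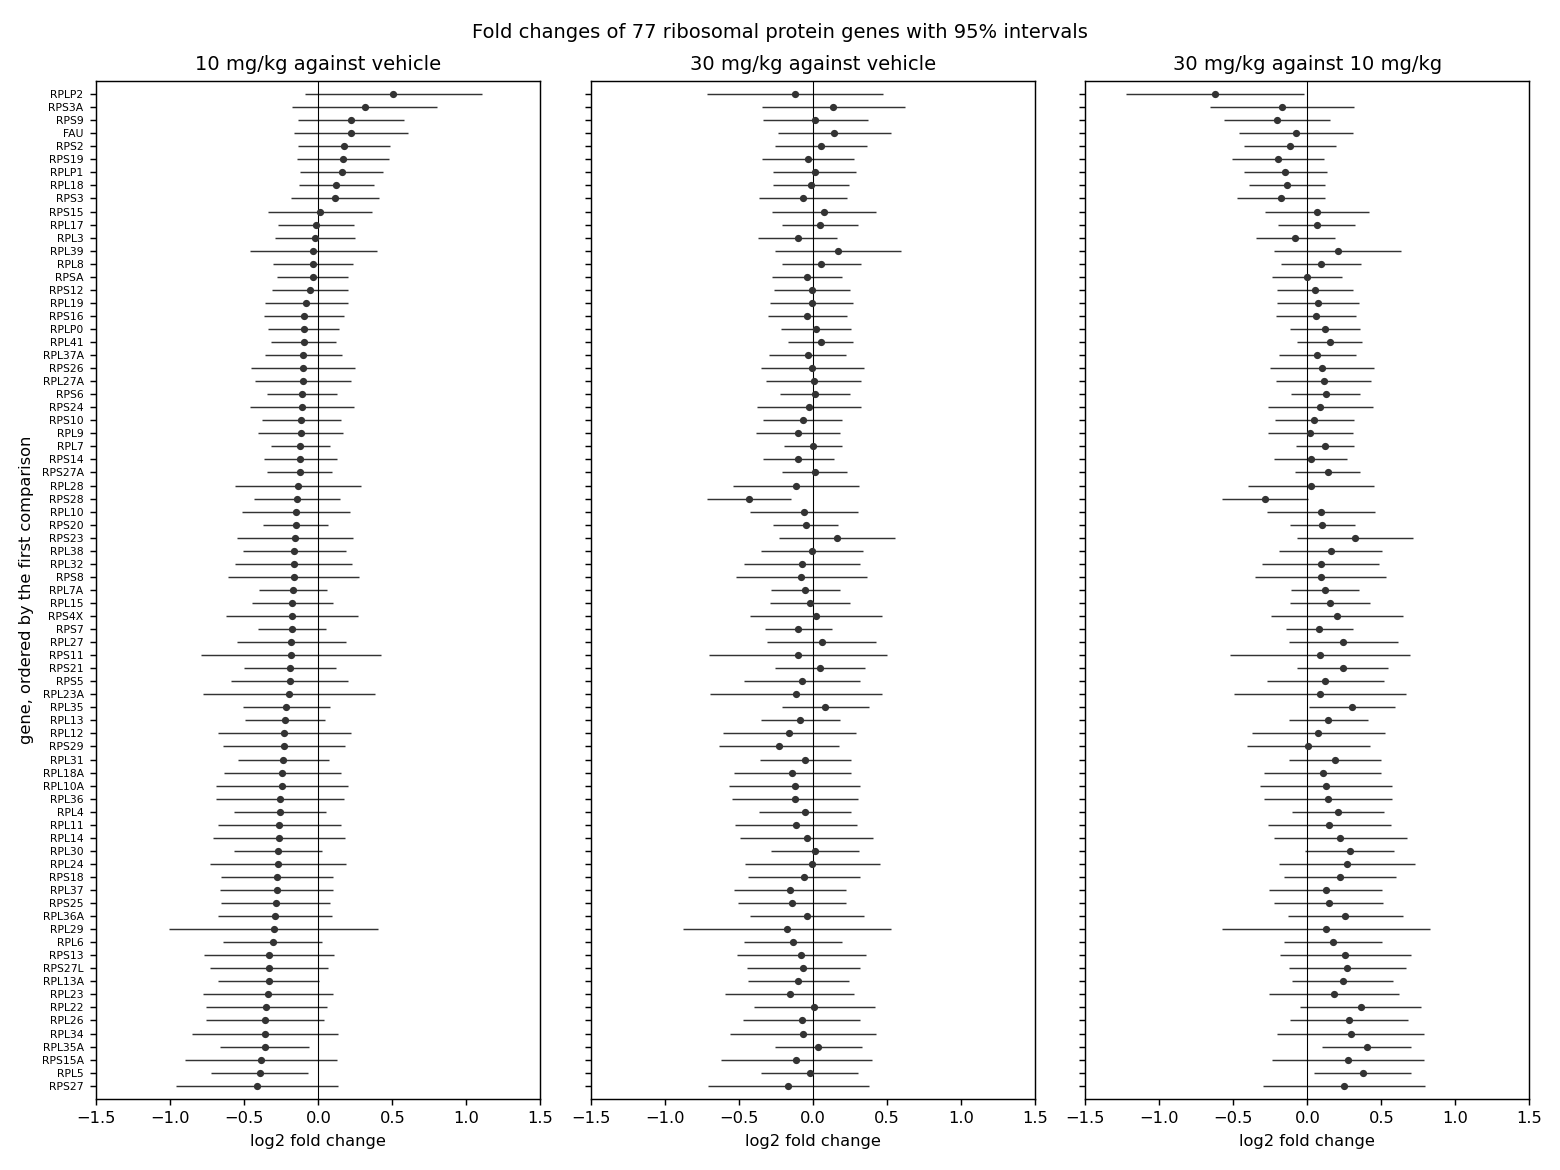
Log2 fold change of 77 of the 79 ribosomal protein genes tested in 3 comparisons, with 95% intervals from the edgeR fit, ordered by the first comparison. RPL21, with intervals wider than the axis, is among the 2 left out. Most points of the first panel lie left of 0 (median of all 79 -0.17), those of the second lie around 0 (-0.05), and RPLP2 stands apart in the panels that involve 10 mg/kg.

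The summed level of the ribosomal protein genes overlapped between groups. It ranged with vehicle from 42409 to 46548 CPM (median 45722), at 10 mg/kg from 35996 to 47133 (median 42744) and at 30 mg/kg from 40916 to 47168 (median 44008). The means were 44969 ± 1670, 41754 ± 4533 and 44005 ± 3203 CPM (SD, n = 6 each), or 0.928 and 0.979 of the vehicle mean. The lowest library was 10 mg/kg replicate 2, and the next lowest 10 mg/kg replicate 4 with 37008 CPM. Without replicate 2 the 10 mg/kg mean was 42905 ± 3968 CPM (SD, n = 5), 0.954 of the vehicle mean.

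In the main fit, which leaves pseudogene counts apart, RPL35A and RPL5 had the smallest p among genes of the large subunit at 10 mg/kg. RPL35A, a gene mutated in Diamond-Blackfan anaemia, ranged with vehicle from 135 to 164 CPM (median 154), at 10 mg/kg from 49.2 to 152 (median 125) and at 30 mg/kg from 131 to 180 (median 157). The groups overlapped, and the 2 lowest values belonged to 10 mg/kg replicates 2 and 1. In that group replicates 1, 2, 4, 5 and 6 lay below every vehicle library, while replicate 3, at 152 CPM, lay among them. Its log2 fold change was -0.36 ± 0.146 (SE; adjusted p = 0.414, edgeR) at 10 mg/kg, 0.04 ± 0.143 (adjusted p = 0.998) at 30 mg/kg and 0.40 ± 0.146 (adjusted p = 0.970) between the doses. Without 10 mg/kg replicate 2 the first of these was -0.26 (adjusted p = 0.321).

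RPL5, which joins RPL11 and the 5S rRNA in the particle that binds MDM2, ranged with vehicle from 868 to 925 CPM (median 892), at 10 mg/kg from 336 to 898 (median 706) and at 30 mg/kg from 780 to 978 (median 880). The vehicle group was narrow and the 10 mg/kg group wide, and in the latter replicates 1, 2, 4 and 6 lay below every vehicle library and replicates 3 and 5, at 870 and 898 CPM, lay among them. Its log2 fold change was -0.39 ± 0.159 (SE; adjusted p = 0.415, edgeR) at 10 mg/kg and -0.02 ± 0.158 (adjusted p = 0.999) at 30 mg/kg. Without 10 mg/kg replicate 2 it was -0.27 at 10 mg/kg (adjusted p = 0.318).

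The other large-subunit genes among the 5 smallest p at 10 mg/kg were RPL13A at -0.34, RPL6 at -0.31 and RPL30 at -0.27 (log2; adjusted p = 0.538, 0.569 and 0.580, edgeR), none past the threshold. They stood at -0.20, -0.16 and -0.18 without 10 mg/kg replicate 2. RPL6 tracked the mean of the other ribosomal protein genes most closely over the libraries, with r = 0.98 over all 18 and 0.94 over the 17 without 10 mg/kg replicate 2, points that share library depth. Between the doses RPL35, a protein near the exit of the peptide tunnel, stood at 0.30 ± 0.141 (SE; adjusted p = 0.970, edgeR), and at 0.19 without that replicate.

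The stalk gene RPLP2 turned on 1 library. It ranged with vehicle from 917 to 1154 CPM (median 1051), at 10 mg/kg from 813 to 3880 (median 1069) and at 30 mg/kg from 772 to 1232 (median 870). The value of 3880 CPM is that of 10 mg/kg replicate 2, and the other 5 libraries of that group ended at 1243 CPM. The log2 fold change between the doses was -0.63 ± 0.288 (SE; adjusted p = 0.970, edgeR), and without that library it was -0.09 (adjusted p = 0.999). Its partners RPLP0 and RPLP1 stood at -0.10 ± 0.115 and 0.16 ± 0.136 (log2, SE) at 10 mg/kg, and at 0.02 and 0.01 at 30 mg/kg. Without that library the values at 10 mg/kg were -0.03 for RPLP0 and 0.04 for RPLP1.

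Of the small subunit, RPS28, another gene mutated in Diamond-Blackfan anaemia, had the smallest p of the 79 genes at 30 mg/kg. It ranged with vehicle from 59.0 to 81.9 CPM (median 76.6), at 10 mg/kg from 50.9 to 83.4 (median 71.2) and at 30 mg/kg from 40.0 to 73.4 (median 51.6). At 30 mg/kg, replicates 1, 3, 5 and 6 lay below every vehicle library, while replicates 2 and 4, at 73.4 and 69.3 CPM, lay among them. The log2 fold change was -0.43 ± 0.138 (SE; 0.742-fold; unadjusted p = 0.00472, adjusted p = 0.262, edgeR), and -0.14 ± 0.140 at 10 mg/kg. The adjusted p ran from 0.0475 to 0.725 over the alternatives, and only voom with sample weights, which gives libraries unequal weight and was chosen after the data were seen, put it past the threshold. RPS28 has no TOP start by the definition used here, but a run of C and T that opens with C begins a base after its listed start. The search would miss such a run, so whether its message has a TOP tract is left undecided.

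The next smallest p of the small subunit at 30 mg/kg were those of RPS29 at -0.23 ± 0.195 and RPS7 at -0.10 ± 0.109 (log2, SE; adjusted p = 0.909 and 0.946, edgeR). RPS4X, the X-linked copy of a small-subunit gene, ranged with vehicle from 793 to 864 CPM (median 829), at 10 mg/kg from 182 to 943 (median 823) and at 30 mg/kg from 751 to 920 (median 853). Its lowest value was again that of 10 mg/kg replicate 2. The same held for RPS27, at 249 to 329 CPM with vehicle, 21.4 to 276 at 10 mg/kg and 213 to 316 at 30 mg/kg (medians 284, 238 and 252).

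**Figure D3:**
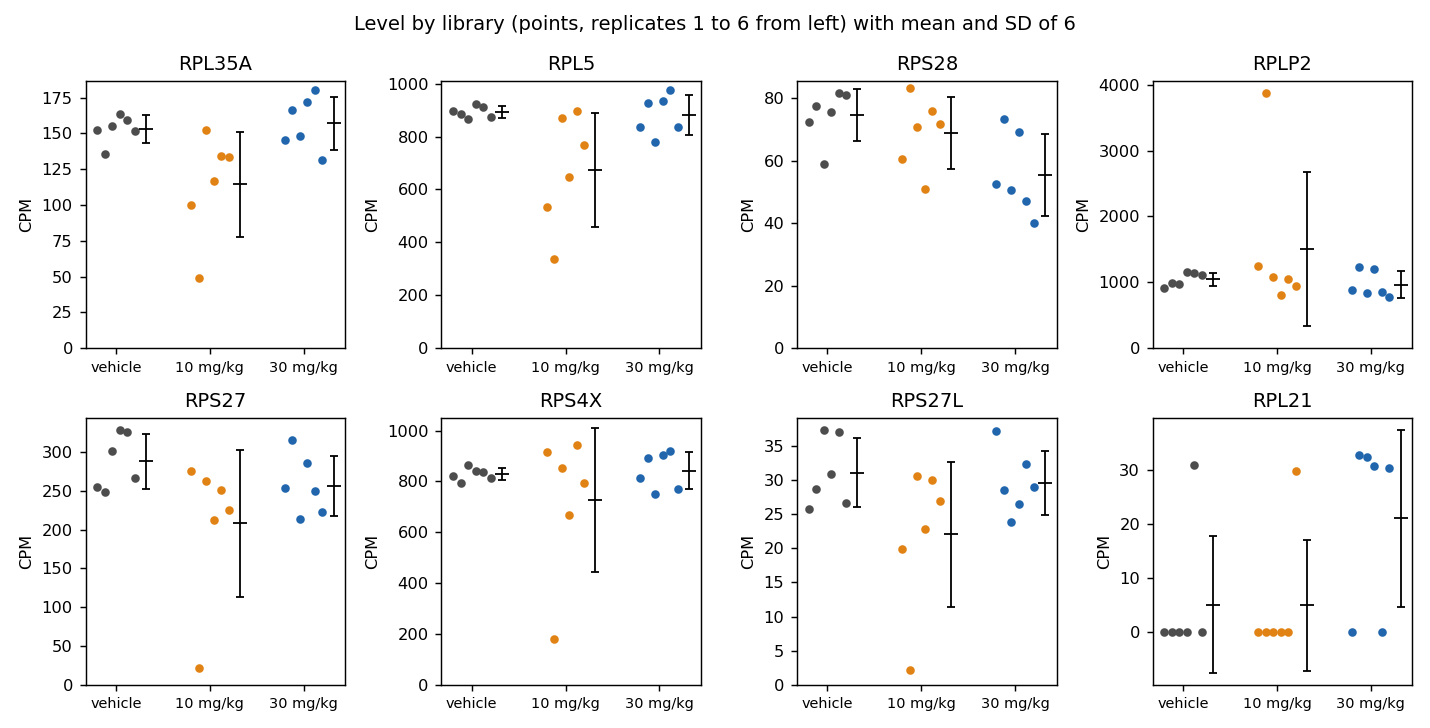
CPM of 8 ribosomal protein genes in each library, with replicates 1 to 6 from left to right in each group and the mean and SD of 6 beside them. All axes start at or below 0. The groups overlap for each gene. The second point at 10 mg/kg is the highest for RPLP2 (3880 CPM) and RPS28 and the lowest for RPL35A, RPL5, RPS27, RPS4X and RPS27L, and RPL21 is either at 0 or near 30 CPM.

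Members lay unequally within libraries, most of all in 10 mg/kg replicate 2. Measured from the vehicle mean, their median there was -1.14 (log2), against -0.33 to 0.13 in the other 17 libraries. In it 46 of 79 genes lay over 1 log2 unit from the vehicle mean, against 1 gene (RPL21) in each of the others, and the values ran from -3.71 for RPS27 to 1.89 for RPLP2. RPS3A and RPS3 correlated negatively with the mean of the other ribosomal protein genes over the 18 libraries (r = -0.85 and -0.74), but this rested on that library, and over the other 17 r was -0.26 for RPS3A and 0.62 for RPS3. The lowest r over the 17 were those of RPS23 at -0.58 and FAU at -0.51. The median SD within groups was 0.362 for these genes and 0.333 for all genes tested (log2), and without that library it was 0.203 and 0.248. The lowest median of the other 17 libraries, -0.33, was that of 10 mg/kg replicate 4, where 74 of 79 genes were below the vehicle mean.

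In the 17 libraries the spread of the members went with a measure of the whole library. A library's log2 values, each minus the gene's mean over all 18 libraries, were set against log2 effective length, so the slope is relative to the other libraries. It was under -0.03 in 5 libraries, vehicle replicate 3, 10 mg/kg replicate 1 and 30 mg/kg replicates 3, 5 and 6. The interquartile range of the ribosomal protein genes was 0.28 to 0.54 (log2) in these and 0.093 to 0.336 in the other 12, with r = -0.61 between slope and range over the 17. Within groups, FAU, RPS26, RPS21, RPS23 and RPS9 were highest where the slope was lowest (r = -0.93 to -0.84), while RPS13 and RPS25 went the other way (r = 0.78 and 0.74). Beyond 0.5 in either direction lay 46.8% of the 79 genes and 34.6% of all genes tested. RPS28 had r = 0.60, and with the slope as a covariate its log2 fold change at 30 mg/kg was -0.42 (adjusted p = 0.0984, edgeR). Over the 17 libraries the median correlation between pairs of members was 0.39. These correlations are descriptions over points that share a library, and the part of the slope in the members' values was not tested further.

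**Figure D4:**
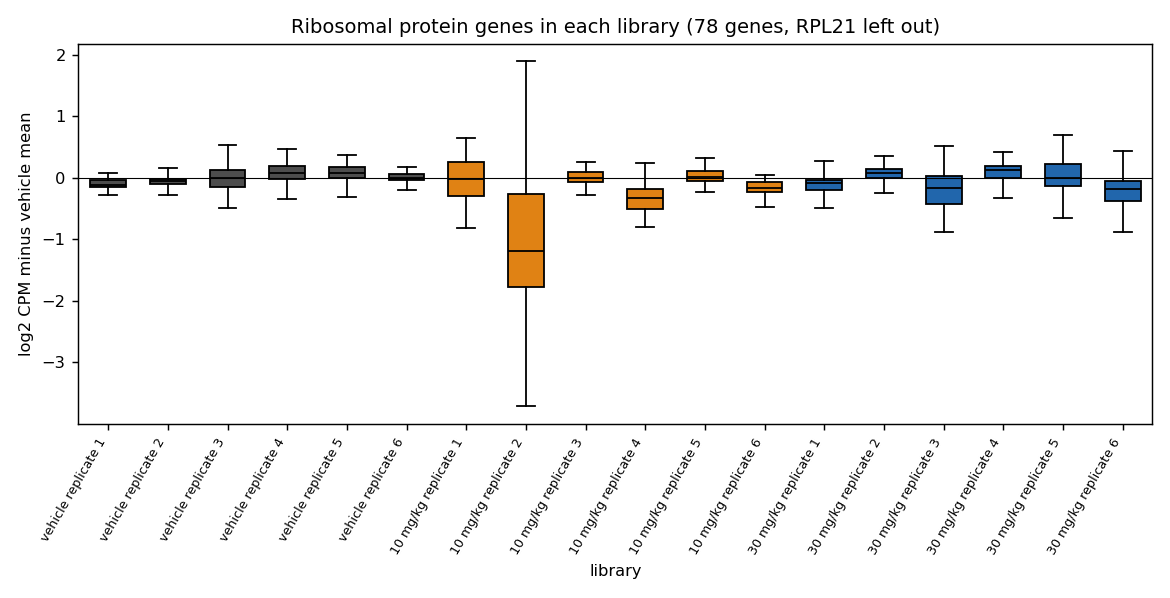
Distribution of 78 ribosomal protein genes in each library, as log2 CPM minus the gene's vehicle mean. Boxes span the quartiles with the median as a line, whiskers reach the lowest and highest gene, colour gives the group, and RPL21 is left out. 10 mg/kg replicate 2 spans -3.71 to 1.89, and the boxes of the other libraries lie near 0.

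RPL21 and RPL13A shared their reads with pseudogenes. RPL21 was listed at 0 in 12 libraries and at 120 to 143 expected counts in the other 6, of which 1 was a vehicle library, 1 had received 10 mg/kg and 4 had received 30 mg/kg. Most counts of the pair went to the pseudogene RPL21P28, whose transcript matched RPL21 at 99.4% of 483 bases. RPL21 held 10.8 to 16.1% of the pair where it was counted at all. The fitted log2 fold change of RPL21 at 30 mg/kg was 2.06 ± 1.48 (SE; adjusted p = 0.865, edgeR), and -0.06 (adjusted p = 0.984) once its pseudogenes were added. With them added it was -0.34 at 10 mg/kg (unadjusted p = 0.0110, adjusted p = 0.346, edgeR) and 0.29 between the doses (adjusted p = 0.968), neither past the threshold. For RPL35A at 10 mg/kg the unadjusted p in the main fit was 0.0203. The sum was not fitted without 10 mg/kg replicate 2. The pair summed to 254 ± 18.2 CPM in the vehicle group, to 195 ± 49.1 in the low-dose group and to 242 ± 21.5 in the high-dose group (SD, n = 6 each). The level listed for RPL21 cannot be told apart from how reads were divided between the pair in the tables.

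RPL13A matched its pseudogene RPL13AP5 at 95.7% of 632 aligned positions, with 3 mismatches and 1 gap, whose positions count as unmatched. The pair of RPL21 and RPL21P28 also had 3 mismatches. RPL13AP5 carried the larger part, with 1826 ± 54.1 CPM with vehicle against 545 ± 17.5 for RPL13A (SD, n = 6 each). RPL13A held 21.3 to 24.2% of the pair in the vehicle group, 11.9 to 23.0% in the low-dose group and 19.4 to 25.0% in the high-dose group. With its pseudogenes added, RPL13A stood at -0.15 (log2; adjusted p = 0.700, edgeR) at 10 mg/kg, against -0.34 alone. In all, 19 members have 30 listed pseudogenes in the tables, and for 8 these held more than 1% of the member's count. For the 6 besides RPL21 and RPL13A it was 1.45 to 6.58%. These shares cover pseudogenes only. RPL36A held 63.9 to 81.8% of its joint counts with the gene RPL36A-HNRNPH2 outside 10 mg/kg replicate 2, and 94.0% in that library. RPL10, with no listed pseudogene, had expected counts that were not whole in all 18 libraries. Expected counts were whole, within 0.005, in every library for 66 of the 82 genes.

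**Figure D5:**
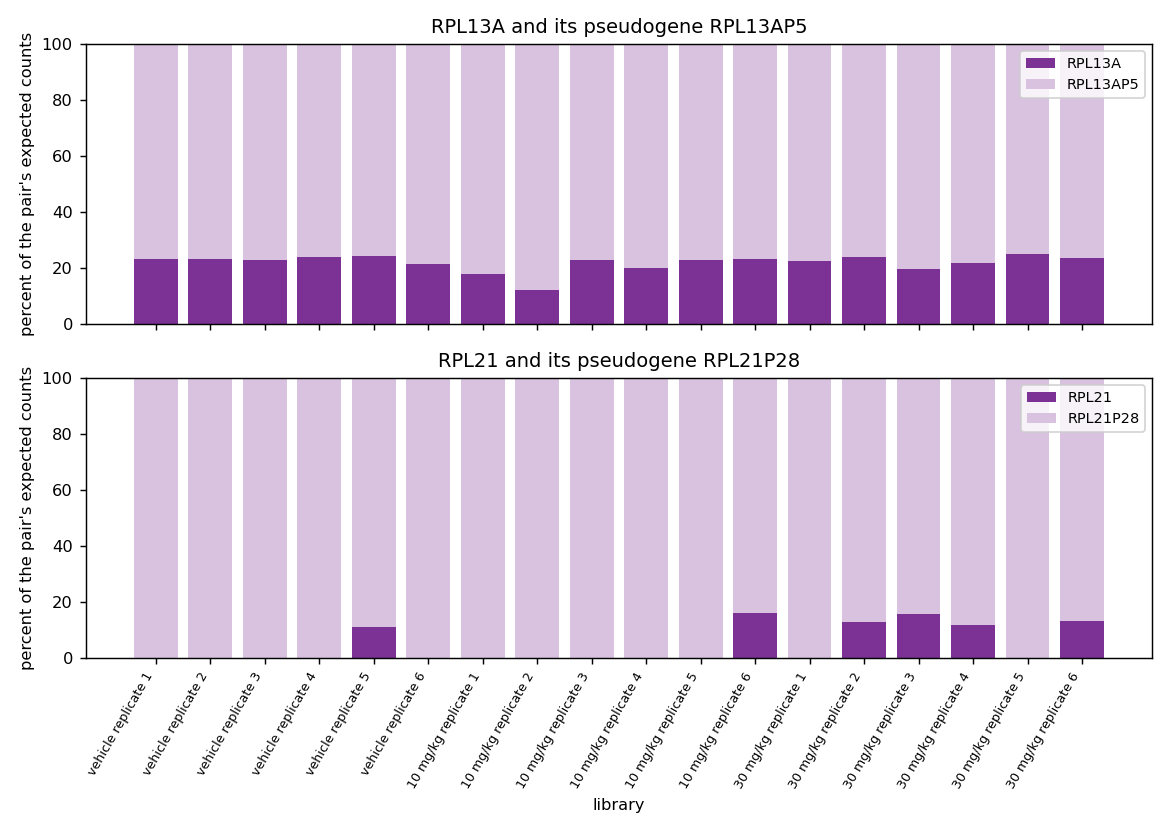
Share of the expected counts of 2 gene and pseudogene pairs in each library, in percent of the pair. RPL13A holds 11.9 to 25.0% in every library, lowest in 10 mg/kg replicate 2, while RPL21 holds 0 in 12 libraries and 10.8 to 16.1% in the other 6.

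Lists of genes that work with the ribosome were set beside the members. Their genes were chosen with earlier results of these data known, and none of their genes passed the threshold in any comparison over the 18 libraries. Translation factors and other genes with TOP messages, 17 tested, had medians of -0.23 at 10 mg/kg and -0.03 at 30 mg/kg against vehicle (log2), with 16 and 12 below 0. Without 10 mg/kg replicate 2 the first median was -0.07, with 16 below 0. Between the doses these genes had a median of 0.16 with 2 below 0, and of 0.04 with 3 below 0 without that library. The gene with the smallest p among them at 10 mg/kg was the initiation factor EIF4B, at 740 ± 47.5 CPM with vehicle and 630 ± 91.4 at 10 mg/kg (SD, n = 6 each; adjusted p = 0.506, edgeR). The 5 ribosomal protein-like genes outside the rule had medians of -0.14 and 0.01, and the 77 mitochondrial ribosomal protein genes, which serve a separate ribosome, -0.08 and 0.02. Without that library their medians at 10 mg/kg were -0.05 and -0.05. Between the doses, over the 18 libraries, their medians were 0.23 and 0.14.

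Ribosome biogenesis factors, 33 tested, had medians of -0.13 and -0.03, with 28 and 20 below 0, and without 10 mg/kg replicate 2 the first was -0.10. Among them the rRNA acetyltransferase NAT10 had the smallest p at 10 mg/kg, with 146 ± 8.78 CPM with vehicle and 114 ± 19.2 at 10 mg/kg (SD, n = 6 each; adjusted p = 0.247, edgeR). The 13 genes of RNA polymerase I, which transcribes the rRNA, had medians of -0.15 and -0.06, and the 7 dedicated chaperones of ribosomal proteins 0.05 and 0.04. The 14 host genes of small nucleolar RNAs, several of which also begin with a TOP tract, had medians of -0.03 and 0.01. Without that library the medians at 10 mg/kg were -0.13 for RNA polymerase I, 0.00 for the chaperones and -0.06 for the host genes. Between the doses, over the 18 libraries, biogenesis factors had a median of 0.11 and RNA polymerase I genes 0.13. The chaperones and the host genes each had 0.03 there.

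The 16 genes that control translation through mTOR and eIF2 alpha had medians of -0.01 and 0.10, and 0.04 at 10 mg/kg without replicate 2. Of these, MYC ranged with vehicle from 221 to 306 CPM and at 10 mg/kg from 176 to 225, with means of 279 ± 33.3 and 201 ± 20.6 (SD, n = 6 each). Its log2 fold change was -0.47 ± 0.116 (SE; adjusted p = 0.0856, edgeR). ATF4, the transcription factor made when eIF2 alpha is phosphorylated, ranged with vehicle from 309 to 458 CPM and at 30 mg/kg from 426 to 693, with means of 373 ± 56.3 and 565 ± 126 (SD, n = 6 each). Its log2 fold change was 0.60 ± 0.142 (SE; adjusted p = 0.0519, edgeR). Over the 18 libraries both fell short of the threshold, and both pairs of groups overlapped. With 10 mg/kg replicate 2 left out both passed it, MYC at -0.44 (adjusted p = 0.0431, edgeR) and ATF4 at 0.60 (adjusted p = 0.0282). At 30 mg/kg MYC stood at -0.40 against vehicle, with adjusted p = 0.166 over the 18 libraries and 0.0489 without that one (edgeR). Over the alternatives the adjusted p ran from 0.0106 to 0.326 for MYC at 10 mg/kg and from 0.00351 to 0.496 for ATF4 at 30 mg/kg.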

How the data were processed

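The authors deposited a table for each library in RSEM's layout, listing 25343 genes by Entrez ID. Per the file headers, values are expected counts, reads per gene estimated by the authors and not scaled, TPM, which the authors scaled for length, and effective lengths. The submitters' processing notes name STAR 2.4.2a, hg19 and mm10; for the quantifier, the annotation and the division of reads between human and mouse, the sources used here name nothing. Per the labels, libraries came from 5 ng of RNA with a stranded pico-input kit.

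Symbols matched by ID for 25220 genes, by accession for 26, and 97 had none. The members and lists were chosen with earlier results of these data known. Rounded expected counts passing filterByExpr (14074 genes) were scaled by TMM and fitted over all 18 libraries with edgeR 4.0.16 (R 4.3.3), with an adjusted p under 0.05 as threshold. The fit was checked on simulated data. Levels are CPM, divided by effective length between genes. Genes named are the 5 smallest p per comparison, the 8 highest and 4 lowest by TPM, the 4 largest SDs, L paralogs with parents, and 1 per list, of which 1 member is not reported here. Alternatives used DESeq2 1.42.0 and limma 3.58.1. RefSeq starts (GRCh38.p14) give sequences only, since the files' build differs or is unknown.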

Additional observations from a re-analysis of the deposited data

Results flagged for a closer look

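Of 84 groups of 6 libraries checked, 10 held a library far from the other 5; chance gives about 1 in 20, and 5 of the 10 are 10 mg/kg replicate 2. In that library RPLP2 stood at 3880 CPM (others of its group 813 to 1243), RPS2 at 3197 (1694 to 1973), RPL6 at 169 (386 to 499), RPS27 at 21.4 (212 to 276) and RPS4X at 182 (670 to 943). RPL3 stood at 2999 CPM in 10 mg/kg replicate 1 (others 1738 to 1908) and at 1608 in 30 mg/kg replicate 1 (others 1883 to 2040). RPS2 stood at 2271 CPM in vehicle replicate 3 (others 1600 to 1766). RPL21 stood at 30.9 CPM in vehicle replicate 5 and 29.9 in 10 mg/kg replicate 6, while the others of both groups were listed at 0.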

How the results depend on the processing

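Of 288 alternative values of the counts, medians and summed levels, 267 stayed close to the main value. The count of ribosomal protein genes past the threshold was 0 throughout, except for 1 (RPS28, log2 -0.44, adjusted p = 0.0475) at 30 mg/kg with voom and sample weights. The 66 genes of all genes past the threshold at 10 mg/kg became 32 without a filter, 24 with a replicate block, 106 with the length slope, 36 with the groups compared alone, 159 by DESeq2, 12 by limma-trend on log2(TPM + 1) and 235 by voom with sample weights. Leaving out 1 library gave 31 to 121, with 31 without vehicle replicate 5, 40 without vehicle replicate 2, 42 without vehicle replicate 1 and 121 without 10 mg/kg replicate 2. The 87 at 30 mg/kg became 57 without a filter, 191 with the groups alone, 179 by DESeq2, 23 by limma-trend and 316 by voom with weights, and 61 to 182 with 1 library left out, 182 without 10 mg/kg replicate 2. By limma-trend the members' median was -0.37 at 10 mg/kg and 0.29 between the doses, and in TPM their sum at 10 mg/kg was 0.889 of vehicle. With 1 library left out the medians ran from -0.21 to -0.10, -0.08 to -0.01 and 0.04 to 0.18. RPL21 at 30 mg/kg reversed to -0.059 with its pseudogenes summed, and reached 9.49 without vehicle replicate 5. RPL21 could not be fitted in every alternative. The causes were not tested, except that fewer or more genes enter without a filter. Replicate numbers showed no clear pairing of the samples, though low correlations cannot exclude it. Of 18 same-number correlations 3 were over 0.1 (range -0.28 to 0.22), and in 4 of the 18 the own number gave the highest correlation. These were replicate 2 for vehicle with 10 mg/kg, and replicates 1, 3 and 4 for vehicle with 30 mg/kg. The replicate block gave 61 genes at 30 mg/kg and 0 between the doses, and 0 ribosomal protein genes. Depth limits 10 mg/kg replicate 2 above all, and members under 50 counts there carry little information.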
